A study of Rattus norvegicus with 16 samples.

Results

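The cytochrome P450 (CYP), UDP-glucuronosyltransferase (UGT) and sulfotransferase (SULT) genes that encode the main drug-metabolising enzymes of rat liver were compared across 2 diets, each given with and without molecular hydrogen. Members were all genes that the array annotation names, as the only symbol of a probe set, in the Cyp1, Cyp2, Cyp3, Ugt1, Ugt2, Sult1 and Sult2 families, with Cyp2c11 left out. A gene took its probe set with the highest mean over the 16 arrays. The rule itself went by name, but was chosen with earlier results of these data known. It found 45 genes with 48 probe sets, of 13439 genes and 31139 probe sets in all, and 40 of the 45 were above the background line of 3.68 log2 on at least 4 arrays and were tested. The 5 that were not were Cyp2b12, Cyp2b21, Sult1d1, Sult2a1 and Ugt2b7. No Ugt1a gene was a member, because the Ugt1a probe sets carry several symbols.

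The animals were male F344 rats, 4 weeks old at the start and reared for 3 weeks, in 4 groups of 4. The normal diet was ordinary rodent chow, and the CDAA diet was a purified diet of amino acids without choline, which is used to induce fatty liver. Within each diet, 1 group drank water with 0.7 mM dissolved hydrogen and breathed air with 2% hydrogen. The other group breathed air and drank the same electrolysed water after it had been stirred open to lose its hydrogen. Both waters contained 0.44 mM sodium sulfate. Chow and the CDAA diet differ in more than choline, and these differences cannot be told apart here. The arrays were RG-230 PM arrays of total liver RNA, 1 per animal as far as the labels tell. The p-values thus set group differences against the spread between samples within the 4 groups.

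CYP enzymes carry out the first step of drug clearance: they are haem proteins of the endoplasmic reticulum that oxidise drugs, steroids, fatty acids and foreign compounds with electrons from NADPH. UGT and SULT enzymes carry out the second, joining glucuronic acid or sulfate to the product so that it leaves in bile or urine. In rat liver many of these genes are known to differ between the sexes and to respond to nuclear receptors, among them the xenobiotic sensors PXR (Nr1i2) and CAR (Nr1i3).

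The promoters of Sult2a6, Sult2a2 and Cyp3a9, which had the largest rises and the largest fall between the diets among called members, are shown first, each with close relatives for comparison. Each window runs from 250 bases before to 50 bases after the start of the gene in RefSeq (build GRCr8), 5′ to 3′ on the strand of the gene. Capitals mark the letters AGTTCA (a nuclear receptor hexamer), GTTAAT (an HNF1 core) and CAAAGTCCA (an HNF4 element), on either strand, so that AGTTCA also appears as TGAACT. The 3 Sult2a windows lie on the minus strand, at chr1:84097759-84098058 for Sult2a6, chr1:85104483-85104782 for Sult2a2 and chr1:84638898-84639197 for Sult2a1.
Sult2a6: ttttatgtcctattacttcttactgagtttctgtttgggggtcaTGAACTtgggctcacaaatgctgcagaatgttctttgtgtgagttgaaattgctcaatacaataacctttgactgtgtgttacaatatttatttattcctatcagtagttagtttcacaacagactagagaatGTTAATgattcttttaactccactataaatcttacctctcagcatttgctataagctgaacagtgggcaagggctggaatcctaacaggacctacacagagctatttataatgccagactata
Sult2a2: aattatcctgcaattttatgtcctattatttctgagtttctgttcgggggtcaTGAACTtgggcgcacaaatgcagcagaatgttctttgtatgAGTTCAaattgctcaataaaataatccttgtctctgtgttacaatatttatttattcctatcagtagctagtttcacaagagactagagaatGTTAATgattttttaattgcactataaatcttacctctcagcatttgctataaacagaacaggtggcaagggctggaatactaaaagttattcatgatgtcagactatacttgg
Sult2a1: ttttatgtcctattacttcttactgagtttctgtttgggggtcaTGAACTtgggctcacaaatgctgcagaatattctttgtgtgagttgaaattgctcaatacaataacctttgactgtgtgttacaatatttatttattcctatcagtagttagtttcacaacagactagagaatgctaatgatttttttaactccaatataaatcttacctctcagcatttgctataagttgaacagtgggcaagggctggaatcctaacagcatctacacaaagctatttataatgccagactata
The Sult2a6 and Sult2a1 windows had 292 of 300 aligned bases in common (97.3%), against 81.1% for Sult2a6 and Sult2a2 and 79.9% for Sult2a1 and Sult2a2. GTTAAT stood in the Sult2a6 and Sult2a2 windows and not in that of Sult2a1, and the letters were present in 7.5% of all 33469 windows of the same length. AGTTCA was in all 3 of these windows and in 14.5% of all windows.

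The 3 Cyp3a windows lie on the minus strand, at chr12:21960111-21960410 for Cyp3a9, chr12:14398754-14399053 for Cyp3a23-3a1 and chr12:14343808-14344107 for Cyp3a2. They are shown because these genes ranged from the largest fall among the members to no call.
Cyp3a9: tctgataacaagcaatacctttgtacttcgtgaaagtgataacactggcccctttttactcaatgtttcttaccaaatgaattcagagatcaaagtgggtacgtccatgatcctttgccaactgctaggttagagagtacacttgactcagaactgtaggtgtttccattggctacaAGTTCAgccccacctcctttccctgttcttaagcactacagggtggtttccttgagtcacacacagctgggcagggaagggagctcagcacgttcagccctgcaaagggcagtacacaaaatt
Cyp3a23-3a1: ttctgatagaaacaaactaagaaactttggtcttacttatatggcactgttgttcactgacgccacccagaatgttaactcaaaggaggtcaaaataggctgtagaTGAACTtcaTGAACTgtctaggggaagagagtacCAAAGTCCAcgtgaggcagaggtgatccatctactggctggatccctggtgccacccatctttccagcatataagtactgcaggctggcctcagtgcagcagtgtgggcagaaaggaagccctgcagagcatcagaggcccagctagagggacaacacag
Cyp3a2: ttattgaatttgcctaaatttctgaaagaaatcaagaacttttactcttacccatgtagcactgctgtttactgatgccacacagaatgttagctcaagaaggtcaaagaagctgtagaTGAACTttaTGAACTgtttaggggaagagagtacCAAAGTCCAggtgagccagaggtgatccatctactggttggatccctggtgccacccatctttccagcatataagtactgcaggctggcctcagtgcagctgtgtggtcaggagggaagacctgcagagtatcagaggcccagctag
Cyp3a2 and Cyp3a23-3a1 had 80.6% of aligned bases in common, and Cyp3a23-3a1 and Cyp3a9 had 58.7%. CAAAGTCCA stood in the Cyp3a2 and Cyp3a23-3a1 windows alone among the 42 members with a window, and in 0.391% of all windows. AGTTCA was in 16 of the 42. The letters TNGCGTG, the element of the aryl hydrocarbon receptor, were in 2 member windows (4.9% of all windows), and TTCNNNGAA, the STAT element, in 4 (8.9%). GTTAAT was in 5 of the 42. These matches describe the letters only. None of these motifs was found in the window of Cyp2d4, Cyp1a2 or Sult1e1, which says only that these letters are not in those 300 bases.

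Most of the CYP genes that differed between the diets were lower on the CDAA diet, and the Sult2 genes were higher, in rats without and with hydrogen. In rats without hydrogen, 18 of the 40 genes fell and 7 rose (limma, Benjamini-Hochberg adjusted p under 0.05). Over all 11433 genes tested, 13.3% fell and 27.3% rose. With hydrogen, 20 of the 40 fell and 7 rose, where 17.3% of all genes fell and 32.1% rose. The median log2 difference of the 40 genes, CDAA minus normal, was -0.23 without and -0.21 with hydrogen, beside 0.04 and 0.05 over all genes. In whole liver, fewer cells of a type and less RNA per cell cannot be told apart. The 2 diet comparisons share no arrays, although the fit pools the spread of all 4 groups. Of the 40 genes, 24 were called in both, 17 lower in both and 7 higher in both, and none in opposite directions.

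The groups of 4 arrays did not overlap, with CDAA lower, for 22 of the 40 genes without hydrogen and 19 with hydrogen, against 13.3% and 15.0% of all genes. They did not overlap with CDAA higher for 7 and 8 genes, against 24.7% and 28.8% of all genes. Among members that passed the adjusted p, 4 fell past 2-fold without hydrogen (Cyp3a9, Cyp2a2, Cyp2d4 and Cyp3a23-3a1). With hydrogen these 4 and Cyp1a2, Cyp2c12 and Sult1e1 did. Sult1e1 differed 2.81-fold without hydrogen but did not pass. Sult2a6 and Sult2a2 rose past 2-fold in both, and Ugt2b34l1 did so without hydrogen. Of all 11433 genes tested, 116 without and 137 with hydrogen were called and fell past 2-fold, and 246 and 378 rose past it.

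**Figure D1:**
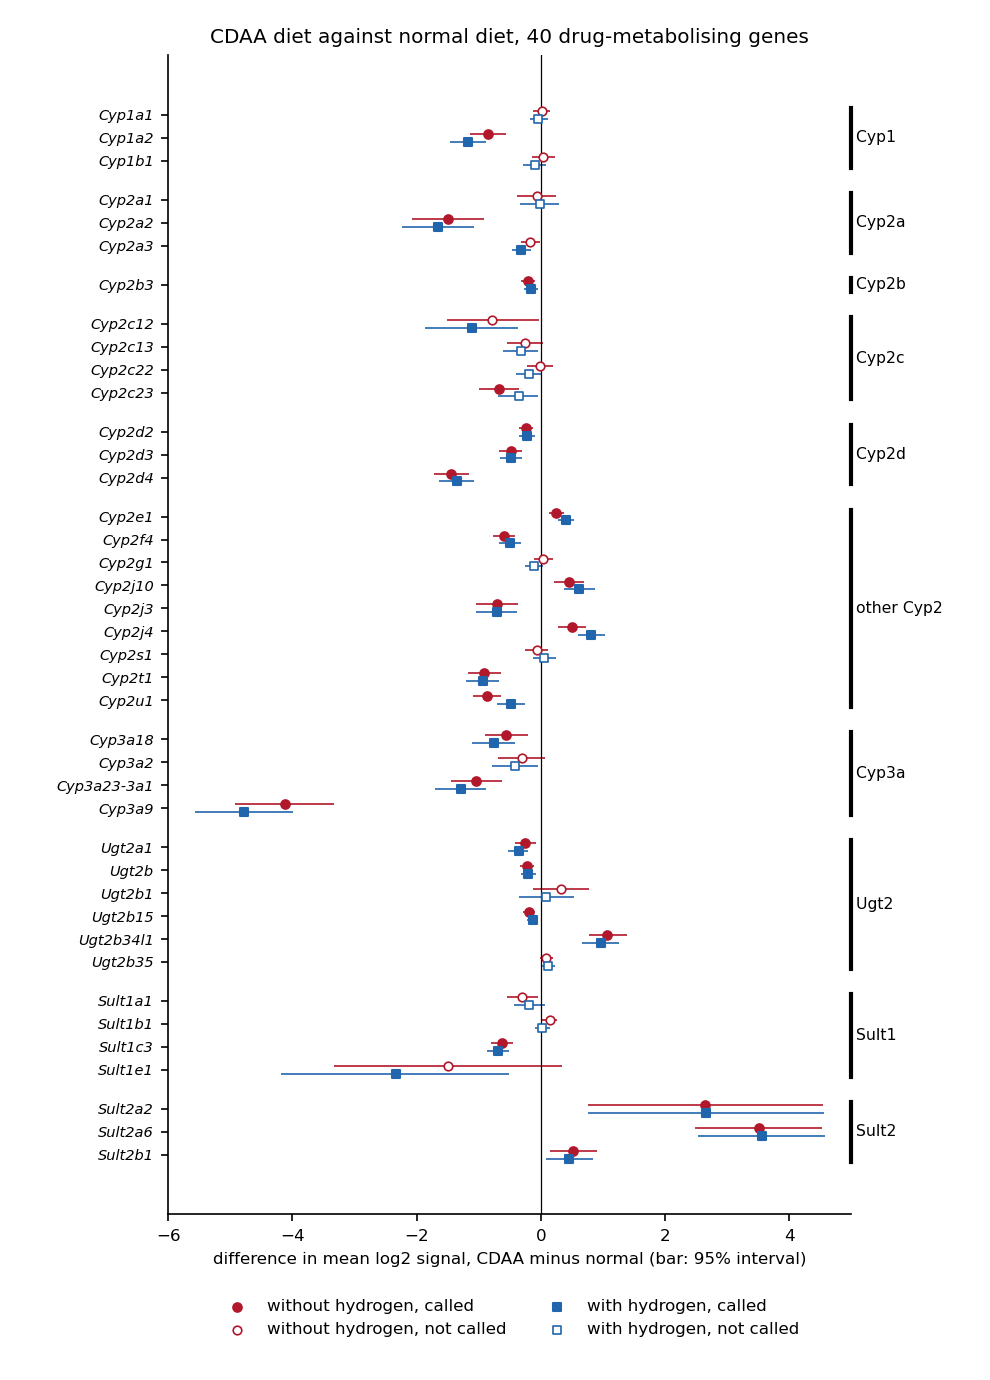
Difference in mean log2 signal between the CDAA and the normal diet for the 40 tested genes, grouped by family, without hydrogen (red circles) and with hydrogen (blue squares), with 95% intervals, 4 arrays per group. Filled symbols passed the adjusted p threshold of 0.05. Cyp3a9 lies farthest to the left at -4.12 and -4.78, and Sult2a6 farthest to the right at 3.51 and 3.56.

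Of the 27 CYP genes tested, 14 fell and 3 rose without hydrogen, and 15 fell and 3 rose with it. The Cyp3a family, whose human relatives clear a large share of medicines, had the lowest family medians among families with more than 1 gene tested, at -0.80 and -1.03. In it 3 of 4 genes fell in each comparison.

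Cyp3a9, a rat CYP3A form known to be more abundant in female liver, fell the most of all members. Its log2 signal in the normal diet controls was 8.68, 8.71, 8.88 and 7.79 on replicates 1 to 4, and with hydrogen it was 8.76, 8.08, 9.55 and 8.89. On the CDAA diet it was 4.05, 3.77, 4.01 and 5.74 without hydrogen and 4.01, 4.35, 3.81 and 3.99 with it. All 8 CDAA arrays lay below all 8 normal diet arrays, and 7 of the 8 were within 0.7 log2 of the background line, with replicate 4 of the CDAA controls apart. The log2 difference was -4.12 ± 0.374 (SE, adjusted p = 3.9e-06), a 17.4-fold fall, without hydrogen. With hydrogen it was -4.78 ± 0.374 (adjusted p = 3.74e-07), a 27.5-fold fall.

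Cyp3a23-3a1, the CYP3A form best known for its induction through PXR, also fell in both comparisons. It read 12.14, 12.17, 12.22 and 12.11 in the normal diet controls and 10.64, 11.32, 10.95 and 11.57 in the CDAA controls. In the hydrogen groups it read 12.14, 12.21, 12.29 and 12.41 on the normal and 11.18, 10.86, 10.41 and 11.45 on the CDAA diet. The groups did not overlap, and the falls were 2.06-fold (adjusted p = 6.48e-04) and 2.44-fold (adjusted p = 7.52e-05). Cyp3a18, a male-predominant form, fell by 0.56 ± 0.163 and 0.76 ± 0.163 on the log2 scale. Cyp3a2, the male-specific adult form, differed by -0.31 (95% interval -0.69 to 0.06) and -0.41 (-0.79 to -0.04) and did not pass (adjusted p = 0.187 and 0.0687).

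Among the Cyp1 genes, which the aryl hydrocarbon receptor controls, Cyp1a2 alone was called. Cyp1a2, which oxidises caffeine and activates aromatic amines, read 10.40, 10.28, 10.25 and 10.06 in the normal diet controls and 9.49, 9.42, 9.16 and 9.51 in the CDAA controls. With hydrogen it read 10.18, 10.08, 10.27 and 10.21 on the normal diet and 9.33, 8.64, 8.77 and 9.30 on the CDAA diet. No CDAA array reached the normal diet range. The falls were 1.81-fold (adjusted p = 1.85e-04) without and 2.26-fold (adjusted p = 7.43e-06) with hydrogen. Cyp1b1 differed by 0.04 ± 0.0890 and -0.10 ± 0.0890 (adjusted p = 0.758 and 0.362), and Cyp1a1, at 4.05 to 4.32 on all 16 arrays, differed by at most 0.04 log2 in size.

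Within Cyp2a, the male-specific steroid hydroxylase Cyp2a2 fell, while the female-predominant Cyp2a1 was not called. Cyp2a2 read 12.03, 12.00, 11.74 and 11.86 in the normal diet controls and 10.25, 10.61, 9.80 and 10.99 in the CDAA controls. The hydrogen groups read 11.82, 11.86, 11.84 and 11.95 on the normal diet and 10.81, 9.24, 10.20 and 10.60 on the CDAA diet. Its falls were 2.82-fold (adjusted p = 5.26e-04) and 3.15-fold (adjusted p = 1.59e-04), with no overlap. Cyp2a1 differed by -0.07 (-0.38 to 0.24) and -0.02 (-0.33 to 0.29). Cyp2a3 lay at the background line (3.24 to 3.85) and was called lower with hydrogen, by at least 1.06-fold.

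In Cyp2c, whose members hydroxylate steroids and fatty acids, 1 of 4 genes fell in each comparison, and it was a different gene. Cyp2c23, an arachidonic acid epoxygenase, fell 1.60-fold without hydrogen (adjusted p = 2.78e-03), where the CDAA arrays read 11.03 to 11.68 against 12.01 to 12.07. With hydrogen its difference was -0.36 ± 0.154 (adjusted p = 0.0655). Cyp2c12, known as female-specific in adult rats, fell 2.17-fold with hydrogen (adjusted p = 0.0173), where the CDAA arrays read 7.07 to 8.67 and overlapped the normal diet arrays at 8.43 to 9.48. Without hydrogen its difference was -0.78 ± 0.352 (adjusted p = 0.0983). The interaction of diet and hydrogen was not called for Cyp2c23 or Cyp2c12, so these 2 genes were not shown to respond differently with hydrogen. The Cyp2c12 call with hydrogen was lost when replicate 2 or 3 of the normal diet or replicate 1 or 4 of the CDAA diet was left out.

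All 3 Cyp2d genes, of the family that oxidises many basic drugs, fell in both comparisons, with medians of -0.48 in each. Cyp2d4 read 8.37, 8.41, 8.28 and 7.89 in the normal diet controls and 6.54, 6.95, 6.77 and 6.95 in the CDAA controls. In the hydrogen groups it read 8.19, 8.03, 8.29 and 8.23 on the normal diet and 7.04, 7.08, 6.64 and 6.57 on the CDAA diet. The falls were 2.70-fold (adjusted p = 4.54e-06) and 2.55-fold (adjusted p = 2.21e-06). A further Cyp2d4 probe set gave log2 differences of -1.88 ± 0.146 and -1.63 ± 0.146 (adjusted p = 1.4e-06 and 1.04e-06). Cyp2d2 and Cyp2d3 fell by 1.17-fold to 1.40-fold. The 1 Cyp2b gene tested, Cyp2b3, fell 1.15-fold and 1.12-fold, and its call was lost in both comparisons when the arrays were quantile normalized again. The call with hydrogen was also lost without replicate 2 of the CDAA group and when the fit held the compared groups alone.

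The other Cyp2 genes split in direction: of 9, 4 fell and 3 rose in each comparison. Cyp2e1, which oxidises ethanol and paracetamol and is known for its activity in fatty liver, rose. It read 12.37, 12.30, 12.34 and 12.46 in the normal diet controls and 12.62, 12.75, 12.65 and 12.47 in the CDAA controls. With hydrogen it read 12.41, 12.40, 12.45 and 12.43 on the normal diet and 12.84, 12.88, 12.81 and 12.79 on the CDAA diet. The rises were 1.19-fold (adjusted p = 3.01e-03) and 1.33-fold (adjusted p = 5.11e-05), with no overlap. Cyp2e1 signals lay within 1.5 log2 of the highest value on the arrays, 13.73, where signals can be compressed. The same limit applies to Cyp2b3, Cyp2c13, Cyp2c22, Cyp2d2, Cyp3a2, Sult1c3 and Sult1e1, with means of 12.22 to 12.7 in the normal diet controls.

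The Cyp2j genes, whose products form epoxides of arachidonic acid, moved apart from each other. Cyp2j4 rose 1.42-fold and 1.75-fold (adjusted p = 1.51e-03 and 2.11e-05), with CDAA arrays at 8.62 to 9.25 and normal diet arrays at 8.18 to 8.52. Cyp2j10 rose 1.37-fold and 1.54-fold from a signal near the background line. Cyp2j3 fell 1.63-fold and 1.64-fold (adjusted p = 2.61e-03 and 1.86e-03), with CDAA arrays at 8.33 to 9.30 and normal diet arrays at 9.48 to 9.64.

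Cyp2t1 fell by 0.91 ± 0.128 and 0.94 ± 0.128 on the log2 scale. Cyp2u1, a hydroxylase of long-chain fatty acids, fell by 0.86 ± 0.107 and 0.48 ± 0.107. Cyp2f4, known from lung as an enzyme of naphthalene metabolism, fell by 0.59 ± 0.0842 and 0.50 ± 0.0842. In these 3 genes no CDAA array reached the normal diet range. Cyp2g1 and Cyp2s1 were not called, with differences between -0.11 and 0.05.

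**Figure D2:**
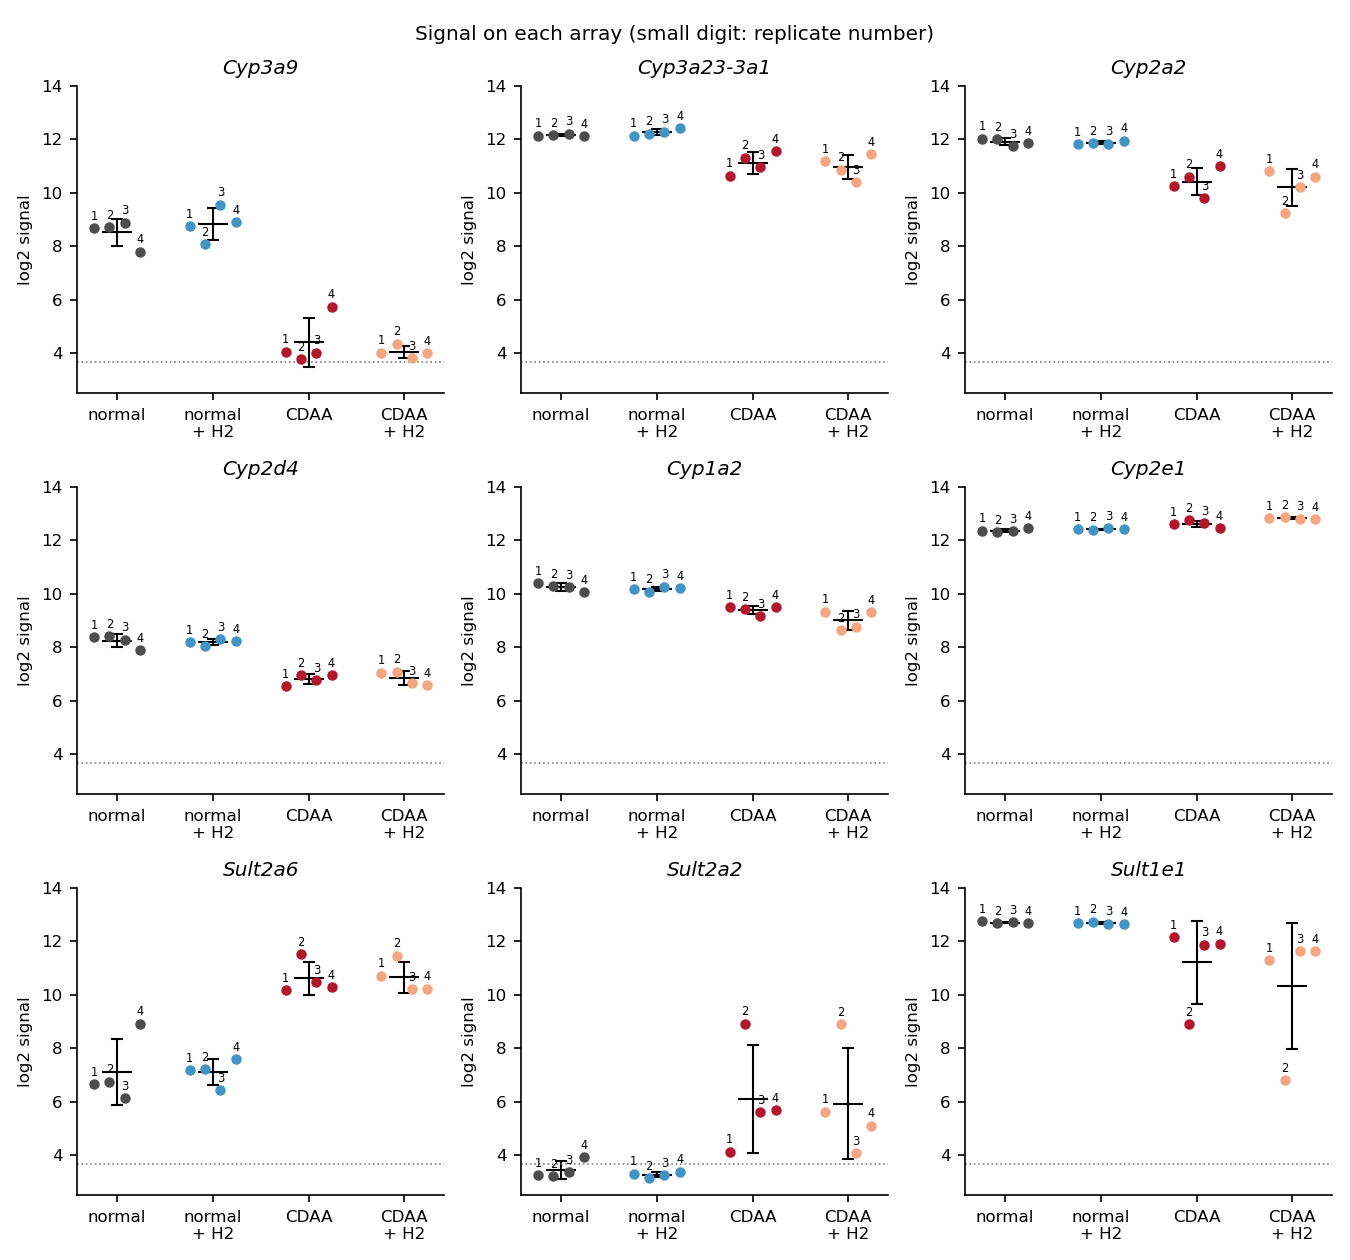
Log2 signal of 9 genes on each of the 16 arrays by group, with the replicate number above each point, the group mean (horizontal mark) and SD (bar, n = 4); the dotted line is the background line at 3.68. Cyp3a9 drops from 7.79 to 9.55 on the normal diet to 3.77 to 5.74 on the CDAA diet, Sult2a6 rises to 10.18 or above on all CDAA arrays, and replicate 2 of both CDAA groups stands apart for Sult2a2 and Sult1e1.

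Among the conjugating enzymes, the UGT genes changed little beside 1 gene. Of 6 Ugt2 genes tested, 3 fell and 1 rose in each comparison. Ugt2b34l1 rose, from 5.40, 5.10, 4.87 and 5.46 in the normal diet controls to 6.38, 6.50, 6.31 and 5.94 in the CDAA controls. The hydrogen groups read 5.24, 5.14, 5.36 and 5.44 on the normal diet and 6.25, 6.54, 5.98 and 6.25 on the CDAA diet. The rises were 2.11-fold (adjusted p = 4.65e-05) and 1.95-fold (adjusted p = 7.20e-05), with no overlap. Ugt2a1, best known from the olfactory lining, fell 1.19-fold and 1.29-fold (adjusted p = 0.0203 and 1.50e-03), and its first call was lost without replicate 1 of the normal diet controls or replicate 3 or 4 of the CDAA controls. Ugt2b15 fell 1.14-fold and 1.10-fold. Ugt2b, at the background line, fell by at least 1.07-fold and 1.08-fold. Ugt2b1 and Ugt2b35 were not called, with differences between 0.08 and 0.32.

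Of 10 probe sets whose several symbols all follow the naming rule, and which therefore stand for no single gene, 5 fell and none rose without hydrogen (log2 differences -1.01 to 0.22). With hydrogen 4 fell and 1 rose (-1.0 to 0.34).

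The sulfotransferases divided by family. All 3 Sult2 genes tested rose in both comparisons, with a median of 2.66 in each, and no Sult1 gene rose. With 3 genes the median is the value of Sult2a2, whose calls were lost without replicate 2 of the CDAA group compared. Sult2b1 read 3.96 to 5.26, not far above the background line, and its calls were lost in several fits. The Sult2a enzymes add sulfate to hydroxysteroids and bile acids and are known to be more abundant in female rat liver.

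Sult2a6 rose the most of all members. It read 6.64, 6.74, 6.13 and 8.92 in the normal diet controls and 10.18, 11.52, 10.48 and 10.28 in the CDAA controls. With hydrogen it read 7.18, 7.21, 6.43 and 7.58 on the normal diet and 10.72, 11.46, 10.21 and 10.23 on the CDAA diet. Replicate 4 of the normal diet controls lay between the diets, and every CDAA array was above it. The rises were 11.4-fold (log2 3.51 ± 0.484, adjusted p = 5.89e-05) and 11.8-fold (3.56 ± 0.484, adjusted p = 3.23e-05). Without replicate 4 of the normal diet controls the first became 17.3-fold (adjusted p = 1.2e-06).

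Sult2a2 was at or below the background line on 7 of 8 normal diet arrays, and replicate 4 of the controls read 3.92. The CDAA controls read 4.13, 8.92, 5.60 and 5.68, and the CDAA rats with hydrogen read 5.62, 8.89, 4.08 and 5.10. Replicate 2 was the highest in both CDAA groups by more than 3 log2. The rise was 6.30-fold (adjusted p = 0.0295) without hydrogen and at least 4.73-fold (adjusted p = 0.0240) with it. Each call was lost when that array of its own comparison was left out: the rise was 3.27-fold (adjusted p = 0.0935) without replicate 2 of the CDAA controls, and 3.18-fold (adjusted p = 0.0772) with hydrogen without replicate 2 of its own CDAA group. Leaving out replicate 1 of the CDAA controls gave 9.89-fold, and leaving out replicate 3 of the CDAA rats with hydrogen gave 9.67-fold. The first call was also lost without replicate 1, 2 or 3 of the normal diet controls and with a trended, robust variance. When replicate 2 was left out of both CDAA groups together, a choice made after its values were seen, both differences passed at the same smaller folds, with adjusted p of 1.51e-03 and 1.66e-03.

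Sult2a1, whose promoter window differs from that of Sult2a6 at 8 aligned bases, was below the line on all arrays and was not tested. Sult2b1, which sulfates cholesterol, rose 1.43-fold and 1.38-fold (adjusted p = 0.0350 and 0.0494). Its first call was lost without replicate 2 or 3 of the normal diet controls or replicate 2 or 4 of the CDAA controls. Its second was lost in most of the other fits.

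Sult1e1, the oestrogen sulfotransferase, which is male-predominant in rat liver, was nearly constant on the normal diet. It read 12.75, 12.68, 12.71 and 12.68 in the controls and 12.69, 12.74, 12.67 and 12.64 with hydrogen. On the CDAA diet it read 12.16, 8.89, 11.88 and 11.92 without and 11.29, 6.81, 11.64 and 11.63 with hydrogen. All 8 CDAA arrays were below all 8 normal diet arrays, and replicate 2 was far below the rest in both CDAA groups. The difference was -1.49 ± 0.866 (adjusted p = 0.197) without hydrogen and -2.34 ± 0.866 (adjusted p = 0.0374) with it. Without replicate 2 of the CDAA controls the first was -0.72 (adjusted p = 0.525), and without replicate 2 of the CDAA rats with hydrogen the second was -1.16 (adjusted p = 0.0896). The second call was also lost when any 1 array of the normal diet with hydrogen was left out, in the fit of the groups compared alone, and in the fit with a trended, robust variance. With replicate 2 left out of both CDAA groups, both passed, at adjusted p = 2.92e-05 and 6.73e-07.

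Sult1c3 fell 1.54-fold and 1.61-fold (adjusted p = 4.10e-05 and 1.01e-05), from 12.24 to 12.40 on the normal diet to 11.43 to 11.85 on the CDAA diet. Sult1a1, which sulfates small phenols, differed by -0.30 (adjusted p = 0.0605) and -0.19 (adjusted p = 0.204). Sult1b1 differed by 0.14 and 0.02 and was not called.

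On the CDAA diet the members had a larger spread between arrays than the median gene. Their median SD over 4 arrays was 0.180 log2 in the CDAA controls and 0.191 in the CDAA rats with hydrogen, beside 0.109 and 0.127 over all genes. On the normal diet it was 0.0911 and 0.0719, beside 0.0957 and 0.0849. These SDs were not tested. Over all groups Sult2a2 (1.46) and Sult1e1 (1.41) had the largest within-group SD, then Sult2a6 (0.789) and Cyp3a9 (0.608).

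**Figure D3:**
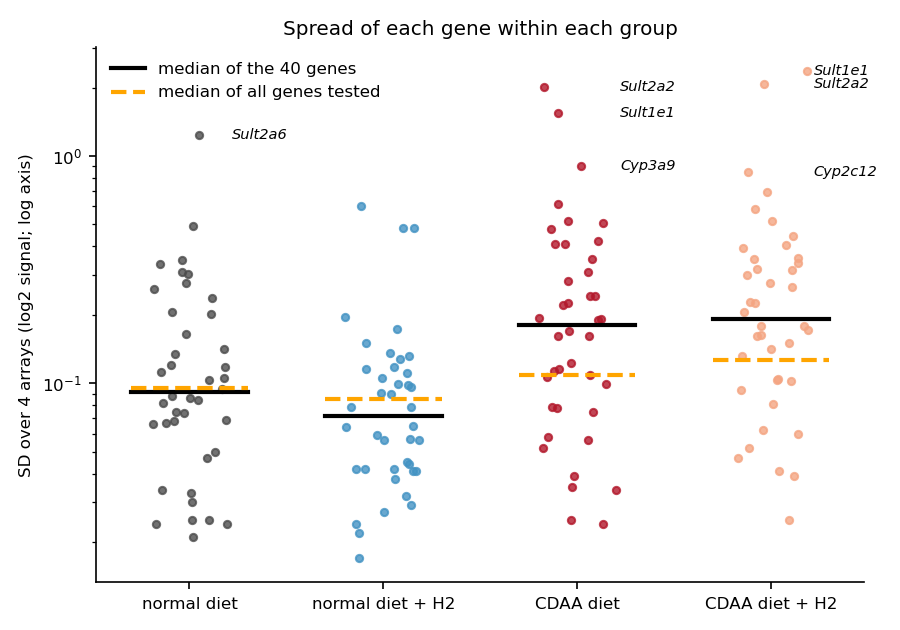
SD of each of the 40 genes over the 4 arrays of each group (log2 signal, logarithmic axis, sideways scatter for legibility), with the median of the 40 genes (black line) and of all genes tested (orange dashes). The black line lies above the orange one in both CDAA groups (0.180 and 0.191 against 0.109 and 0.127), and Sult2a2 and Sult1e1 are the highest points there.

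In both CDAA groups the array with replicate number 2 was the lowest of its group for 6 of the 40 genes and the highest for 7. The 6 were Cyp2c13, Cyp3a2, Cyp3a18, Sult1e1, Cyp1b1 and Ugt2b35. The 7 were Sult2a6, Sult2a2, Cyp2e1, Sult1a1, Cyp2d3, Ugt2b1 and Ugt2b34l1. Such counts were not made over all genes. Over all tested probe sets, the deviations of the number 2 arrays of the CDAA groups correlated at 0.265. Those of numbers 1, 3 and 4 correlated at -0.079, 0.325 and 0.19, so number 2 was not the highest. For the other numbers the counts were 1 and 2 for number 1, 3 and 1 for number 3, and 2 and 5 for number 4. Cyp2c13, Cyp3a2, Cyp3a18 and Sult1e1 are male-predominant in rat liver and the Sult2a genes female-predominant, a grouping made after the values were seen. Not all members known for a sex pattern followed it. The male-specific Cyp2a2 read 10.61 on replicate 2 of the CDAA controls, the second highest of its group, and 9.24 on that of the CDAA rats with hydrogen, the lowest. The female-predominant Cyp3a9 read 3.77 and 4.35 there, the lowest and the highest of their groups. Cyp2c13 read 11.88 and 11.60 on these arrays and 12.25 to 12.39 on the other CDAA arrays. Cyp3a18 read 10.30 and 10.21 against 10.63 to 11.05, and Cyp3a2 read 11.73 and 11.18 against 11.52 to 12.37. Cyp2c11, the main male form and no member here, read 8.56 and 7.13 on them, the lowest of each group. All 16 arrays carried a male pattern, with the Y-linked Eif2s3y at 8.70 to 9.19 and Xist at 3.44 to 3.85. The labels do not tie the number 2 of one group to that of another.

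**Figure D4:**
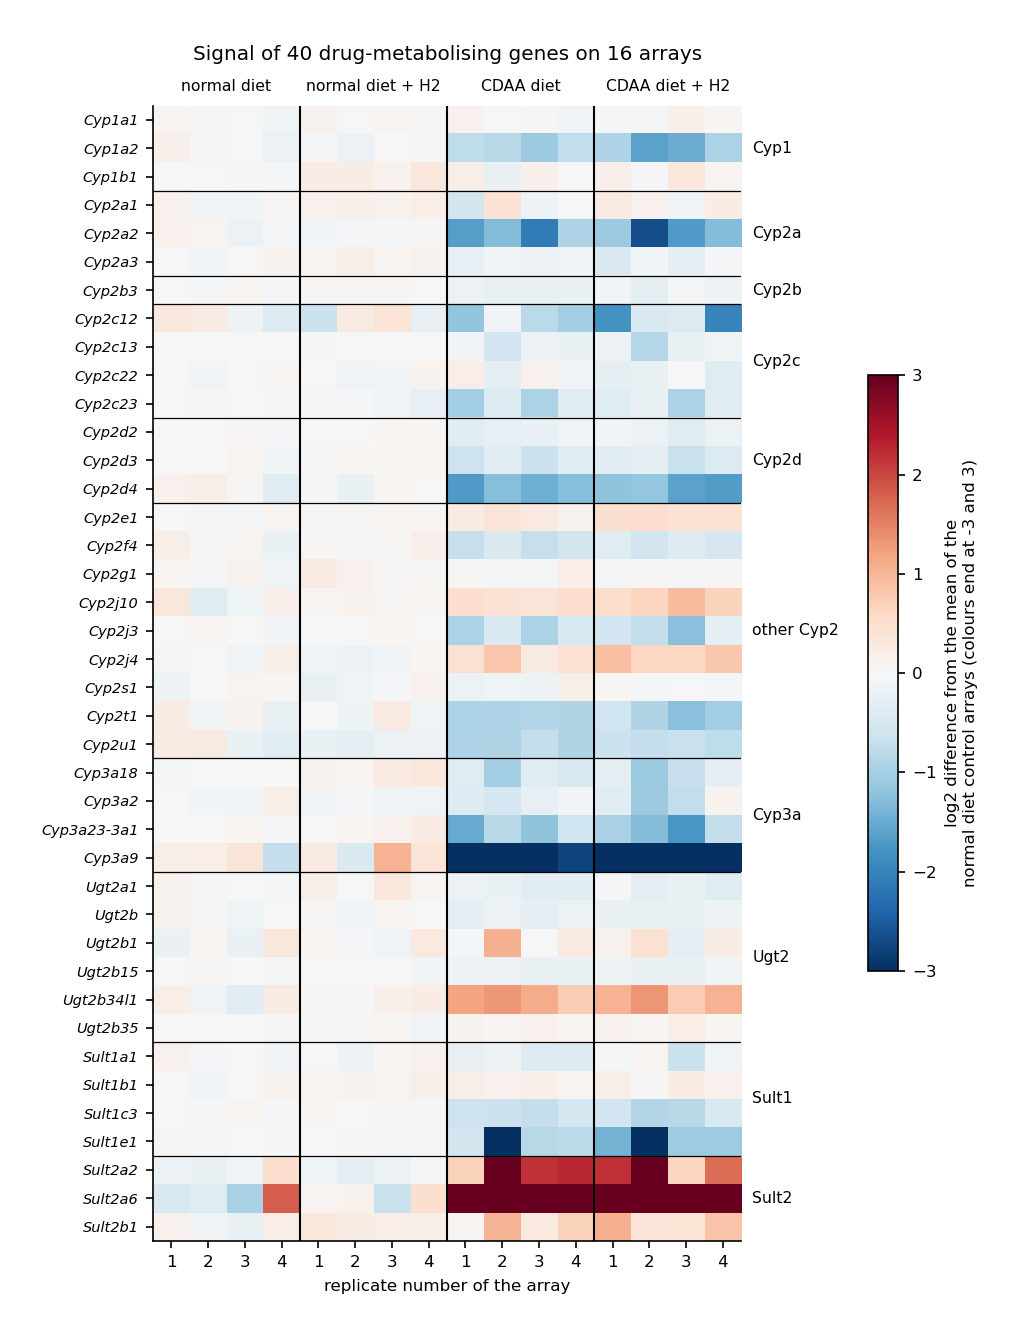
Log2 difference of each of the 40 genes on each array from the mean of the normal diet control arrays, with genes in rows by family and arrays in columns by group and replicate number. Colours end at -3 and 3. Blue rows of Cyp3a9, Cyp2a2 and Cyp2d4 and red rows of Sult2a6 and Sult2a2 span the CDAA arrays, and Sult1e1 is darkest on replicate 2 of both CDAA groups.

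None of the 40 genes was called for hydrogen in any comparison (limma). On the normal diet 0 of 40 were called, where 0.00875% of all genes were. At an unadjusted p under 0.05 there was 1 member, Cyp1b1, beside 813 of all 11433 genes. Cyp1b1 was higher by 0.23 ± 0.0890 (adjusted p = 0.591), with 4.85 to 5.07 on the hydrogen arrays against 4.68 to 4.76 on the controls. The arrays also did not overlap for Cyp3a18 (higher) and Cyp2c23 (lower). Of all genes, 278 were higher and 373 lower without overlap. On the CDAA diet 0 of 40 were called, where 0.376% of all genes were. Beside 1440 of all 11433 genes, 3 members had an unadjusted p under 0.05. These were Cyp2e1, higher by 0.21 ± 0.0586 (adjusted p = 0.177), Cyp1a2, lower at -0.39 ± 0.135 (adjusted p = 0.273), and Cyp2j4, higher by 0.24 ± 0.105 (adjusted p = 0.395). For Cyp2e1 the 4 hydrogen arrays (12.79 to 12.88) lay above the 4 controls (12.47 to 12.75). The arrays of Cyp2j10 also did not overlap, with hydrogen higher. Of all genes, 257 were higher and 173 lower without overlap. The interaction of diet and hydrogen was called for 0 of 40 and for 0.0% of all genes. The smallest unadjusted p was that of Cyp2u1 (0.0226, adjusted p = 0.483), the single member under 0.05, beside 1060 of all 11433 genes.

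A p above the threshold does not show that hydrogen had no effect, so the intervals are given. On the normal diet the 95% interval of the hydrogen difference lay within 2-fold in each direction for 36 of 40 genes, and on the CDAA diet for 35 of 40. The exceptions were Cyp3a9, Sult1e1, Sult2a2 and Sult2a6 on both diets and Cyp2c12 on the CDAA diet. The median half-width was 0.25 log2. The intervals use 1 spread for all 4 groups, so for Sult1e1, with -1.86 to 1.82 on the normal diet, they are wider than the normal diet arrays alone would give. For members with a larger spread on the CDAA diet, intervals on that diet can be narrower than the CDAA arrays alone would give. An example is Cyp2a2 (-0.77 to 0.37), with SDs of 0.508 and 0.696 on the CDAA and 0.134 and 0.057 on the normal diet. The count of 35 may therefore be too high. On the CDAA diet the Sult1e1 difference was -0.87 (-2.71 to 0.97). With replicate 2 of both CDAA groups left out, it was -0.47 (adjusted p = 0.0234), the only member called for hydrogen in that fit. With replicate 2 of the CDAA controls alone left out, Cyp2e1 was called instead, at 0.25 (adjusted p = 0.0452).

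**Figure D5:**
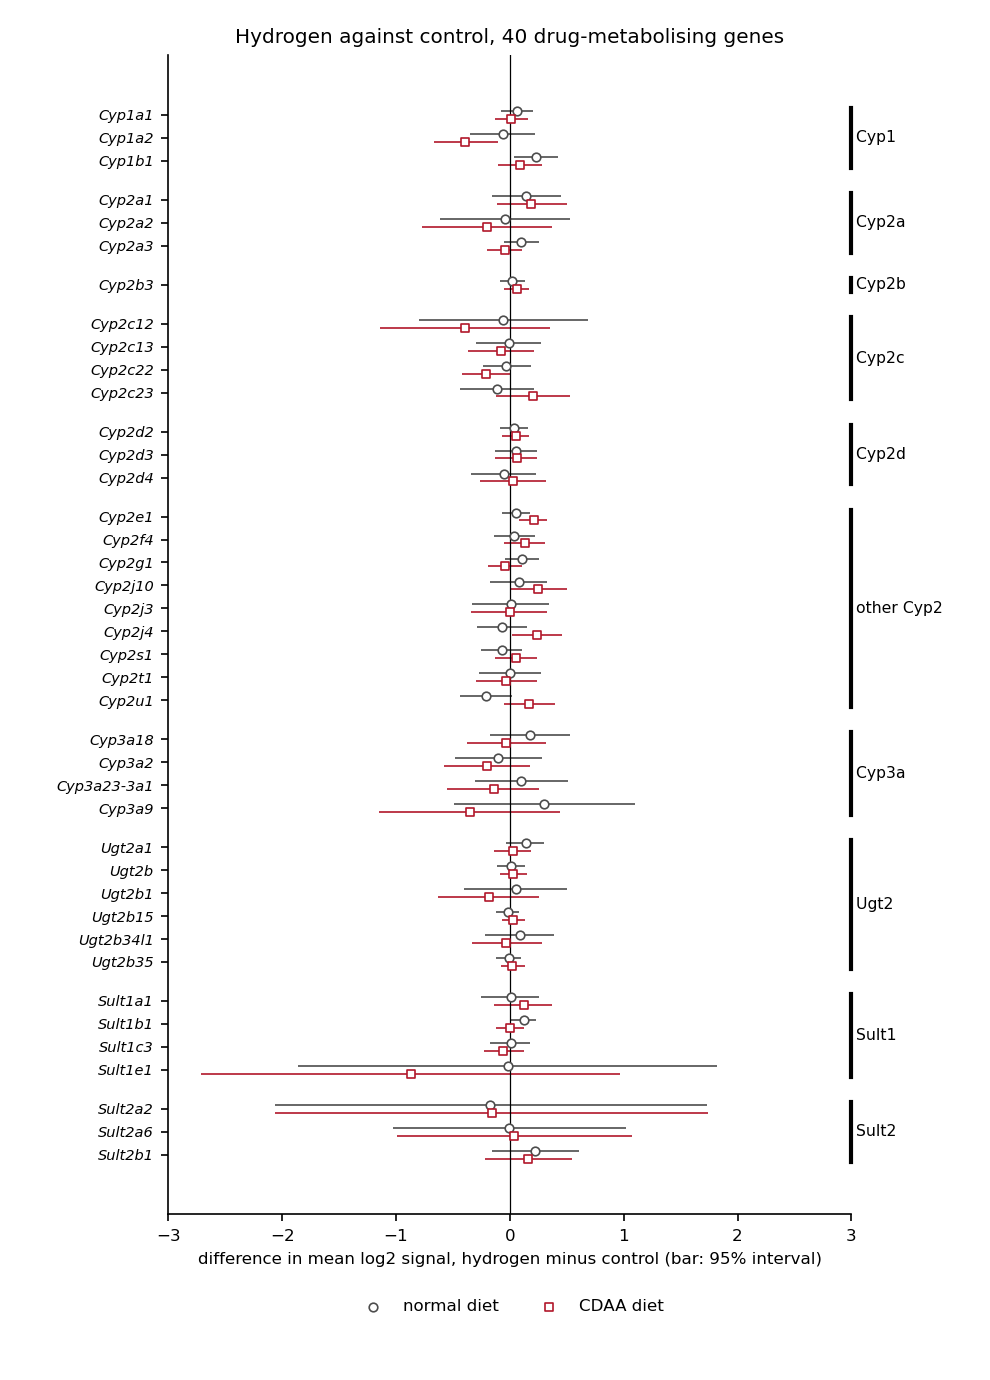
Difference in mean log2 signal between hydrogen and control rats for the 40 genes on the normal diet (grey circles) and the CDAA diet (red squares), with 95% intervals, 4 arrays per group. No gene passed the adjusted p threshold. The intervals of Sult1e1, Sult2a2 and Sult2a6 are the widest, and Cyp2e1 on the CDAA diet lies at 0.21 (0.08 to 0.33).

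The genes that supply and control these enzymes were read from a list of 70, of which 55 were tested. Without hydrogen 17 fell and 7 rose on the CDAA diet, and with hydrogen 19 fell and 11 rose, with medians of -0.12 and -0.11. Over all genes tested, 13.3% fell and 27.3% rose without hydrogen, and 17.3% fell and 32.1% rose with it. In the hydrogen comparisons 0 of the 55 were called. Of 26 receptors and transcription factors, 8 fell and 1 rose without hydrogen, and 9 fell and 2 rose with it. The largest changes were those of Bcl6, a transcriptional repressor that is known to act opposite Stat5 in male liver, at -2.77 ± 0.762 (adjusted p = 9.79e-03) without hydrogen, and of the liver factor Onecut1, at -2.09 ± 0.643 (adjusted p = 0.0150) with hydrogen. Each had the opposite sign, not called, in the other diet comparison: Bcl6 was at 1.05 with hydrogen (adjusted p = 0.273) and Onecut1 at 0.42 without (adjusted p = 0.646). For hydrogen on the normal diet Bcl6 differed by -2.89 with no overlap (adjusted p = 0.329). The interaction was not called for either gene (adjusted p = 0.332 and 0.460), and in the diet comparisons their arrays overlapped. Outside the naming rule, and named for their roles after their values were seen, the xenobiotic sensor Nr1i2 fell without hydrogen (-0.40, adjusted p = 5.13e-03) and was at -0.12 with it (adjusted p = 0.335). Nr1i3 rose with hydrogen (0.96, adjusted p = 5.20e-04) and was at 0.04 without it (adjusted p = 0.893). Their interactions were not called (adjusted p = 0.569 and 0.312), so neither was shown to depend on hydrogen.

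Of 6 electron donors and membrane partners of the CYP enzymes, 3 fell and none rose in each comparison, and of 8 genes of haem supply 3 fell and 2 rose. The groups in this paragraph are small, and their counts were not tested against the shares of all genes given above. Of 4 genes that supply the sulfate donor PAPS, 1 fell and 1 rose in each comparison. Papss2, a PAPS synthase, changed by -1.73 ± 0.134 and -1.66 ± 0.134 on the log2 scale (adjusted p = 1.4e-06 and 4.64e-07), with no overlap, while the Sult2 genes rose. Of 9 other enzymes of drug metabolism, 3 rose and 2 fell without hydrogen, and 5 rose and 3 fell with it. The flavin monooxygenase Fmo5 rose 3.60-fold and 6.61-fold (adjusted p = 3.64e-03 and 1.34e-04). The aldehyde dehydrogenase Aldh1a1 rose 4.63-fold and 4.96-fold (adjusted p = 1.56e-05 and 5.32e-06).

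The mean level of 7 hepatocyte markers was 13.03 to 13.10 on all arrays, and Alb read 13.70 to 13.73, near the top of the scale. Of these 7 markers, 1 rose and 1 fell in each diet comparison, by at most 0.32 log2. Some markers of other cells differed between the diets. Of all genes, 27.3% rose and 13.3% fell without hydrogen, and 32.1% rose and 17.3% fell with it. Without and with hydrogen, 3 and 4 of 5 macrophage markers rose (1 and 0 fell), and 3 and 5 of 6 stellate cell markers rose. The counts that rose were 2 and 2 of 4 for bile duct, 2 and 2 of 5 for lymphocyte and 1 and 2 of 4 for endothelial markers. Of 2 red cell markers, 2 and 1 fell, and none of 2 adipocyte markers was called. These small counts were not tested against the shares of all genes. The mean level of the macrophage markers was 7.01 to 7.74 on the normal diet and 7.56 to 8.19 on the CDAA diet, and that of the stellate markers 5.64 to 6.10 and 6.21 to 6.49. Markers of liver zones moved too. Of 5 pericentral markers, of the zone where most CYP enzymes are known to be concentrated, 3 fell in each comparison, and 0 and 2 rose. Their mean level was 8.59 to 8.90 on the normal and 7.73 to 8.20 on the CDAA diet, with Oat falling by 3.31 ± 0.360 and 4.00 ± 0.360. The other pericentral markers changed far less, Axin2 by -0.44 and -0.40 and Rgn by -0.51 and -0.43. Glul (0.05 and 0.28) and Slc1a2 (0.32 and 0.68) were not called without hydrogen and rose with it. The lower pericentral mean thus rests largely on Oat. Of 6 periportal markers 3 and 5 fell and 1 and 1 rose. Their mean level was 10.16 to 10.39 on the normal and 9.15 to 9.84 on the CDAA diet. The part of these cells and zones in the CYP, UGT and SULT differences was not tested.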

How the data were processed

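Total RNA from 16 livers was hybridised to RG-230 PM arrays. Log2 signals for each probe set were deposited by the authors, computed by RMA in Affymetrix Expression Console per the submitters' processing notes, which name no version. RMA subtracts background, quantile normalizes and summarises perfect-match probes. Differences between array signals can be compressed near background and near saturation. The deposited values ran from 2.42 to 13.73, with array medians of 4.33 to 4.37. Precision is limited by how many arrays there are.

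Here 97 array controls were removed and probe sets above 3.68 log2 (the 30th percentile of all values) on at least 4 arrays were kept, 22634 in all. One limma model (version 3.58.1, R 4.3.3) with lmFit and eBayes was fitted over the 4 groups, with Benjamini-Hochberg adjustment over all kept probe sets and calls at an adjusted p under 0.05. It was tested on simulated data. Contrasts were CDAA against normal diet without and with hydrogen, hydrogen against control within each diet, and the interaction. A gene took its probe set with the highest mean over the 16 arrays, and genes were named from the platform annotation (19069 probe sets with 1 symbol, 572 with several, 11498 not listed). A fold for a gene not above the line on any array of 1 group is "at least", against the line. Intervals are limma's 95% intervals. Signals of different probe sets were not compared, and near-identical relatives (Cyp2d, Cyp3a, Sult2a, Ugt2b) may share probe signal.

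Named members were those called for hydrogen or interaction, the 12 highest and 12 lowest called per diet comparison, and otherwise the smallest p of a subfamily; others are named only to account for each family. From the pathway and marker lists the 4 largest called changes could be named, and the pericentral markers were all named to account for their mean. The members and lists were chosen with earlier results of these data known. Promoter windows are RefSeq's (GRCr8), for 42 of 45 members. Replicate numbers were not used as pairs, because the labels do not tie them between groups. The correlation of deviations in 24 same-numbered pairs ran from -0.129 to 0.325, with 9 over 0.1. Its median was 0.078, against -0.01 for other numbers. Whether same-numbered samples shared any handling was not tested. Alternatives were other filters, scaling, samples in the fit, variance model, a replicate block, the mean of probe sets, and each array left out.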

Additional observations from a re-analysis of the deposited data

Results flagged for a closer look

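For the 24 named members, 96 sets of 4 arrays were looked at for 1 array far from the other 3, and 6 had one. Chance alone flags about 1 in 20 such sets. Replicate 2 accounted for 3 of the 6: Sult1e1 at 8.89 log2 in the CDAA controls and at 6.81 in the CDAA rats with hydrogen, and Cyp3a18 at 10.3 in the CDAA controls. Cyp3a9 read 5.74 on replicate 4 of the CDAA controls, above the others of its group. Cyp2u1 read 6.06 on replicate 3 of the CDAA controls, and Cyp2b3 read 12.2 on replicate 4 of the normal diet with hydrogen, both within 0.25 log2 of their groups.

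Among data that stand for no single gene, 5 of the 10 probe sets with several symbols of these families were called in the diet comparison without hydrogen, all lower on the CDAA diet.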

How the results depend on the processing

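Of the 1194 diet differences recomputed for the 24 named members, 1136 kept their side of the threshold, 48 lost their call, 10 gained one and no called value changed sign. Cyp1b1, not called at 0.04 without hydrogen, came to -0.01 without replicate 1 of the CDAA controls. Leaving out 1 array accounted for 34 of the losses. Sult2b1, Sult1e1, Sult2a2, Cyp2c12, Cyp2b3 and Ugt2a1 lost calls, and Cyp2c12, Cyp2c23 and Sult1e1 gained one for diet. The counts of members called for diet stayed within 1.5 times, in either direction, under all alternatives. For hydrogen on the CDAA diet, leaving out each array in turn gave 0 to 1 members called (Cyp2e1), and leaving out replicate 2 of both CDAA groups, chosen after seeing the data, gave 1 (Sult1e1). With the replicate block, 26 members were called for diet without hydrogen (25 in the model without it), 29 with hydrogen (27) and 0 for hydrogen. The block moved the single calls of Sult2b1 with hydrogen (adjusted p = 0.0515), Cyp2c12 without hydrogen and Cyp2c23 with hydrogen. The labels do not say whether the numbers pair the samples. Signals near 3.68 log2 (Cyp3a9 on the CDAA diet, Sult2a2, Sult2b1, Cyp2j10) limit how large a fold can be read.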
